A study of Mus musculus with 12 samples.

Results

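The 10 genes of the NF-kappa B pathway described here were chosen by gene symbol from a table of brain RNA: the subunit genes *Nfkb1*, *Nfkb2*, *Rela* and *Relb*, the inhibitor and nuclear I kappa B genes *Nfkbia*, *Nfkbiz* and *Bcl3*, the feedback genes *Tnfaip3* and *Birc3*, and the receptor gene *Tnfrsf1a*. All 10 symbols were found, each on 1 row of the 31208 genes listed. The 12 brain samples, 4 in each of 3 groups, came from C57BL/6 mice aged 8 wk, and each is taken as 1 mouse, which the labels do not state. Sham mice were operated without occlusion, ischemic mice of the vehicle group had received 2 μL of sterile saline, and those of the lactate group 2 μL of lactate at 100 mmol/L. The injections went into the cerebral ventricle 24 h before a filament blocked the left middle cerebral artery. Samples of both ischemic groups date from 6 h after ischemia. In the study's methods the lactate is D-lactate, where the labels say lactate only, and the mice are male, and those methods do not say whether sham mice were injected or which part of the brain was taken.

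NF-kappa B is a family of dimeric transcription factors that wait in the cytoplasm bound to inhibitors of the I kappa B family. Signals from receptors for tumor necrosis factor, interleukin 1 and microbial products activate a kinase complex, IKK, which marks I kappa B proteins for destruction and lets the dimers enter the nucleus. Among the genes they switch on are their own inhibitors, so *Nfkbia* and *Tnfaip3* are textbook readouts of recent NF-kappa B activity. In ischemic brain the pathway is known to be active in glia, vessel cells, neurons and invading leukocytes. RNA levels of the members say nothing by themselves about the amount or the nuclear location of the proteins.

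The short DNA word that NF-kappa B dimers bind, the kappa B consensus of 10 bases, was searched on both strands in RefSeq promoter sequences (GRCm38.p6), over the 250 bases before and the 30 bases after each transcription start. Windows were found for 7 members, and 4 of these, *Nfkbia*, *Tnfaip3*, *Bcl3* and *Nfkb2*, held at least 1 match. Of all 32851 windows in the table, 4.22% held a match, and of all 27025 genes 4.83% had a window with one. For *Nfkbiz*, *Nfkb1* and *Relb* no window was matched by symbol. For each of these 4 members, the window with the match nearest the start is given to show where the word lies. They are written on the strand of the gene, with the matched bases in capitals.
Nfkbia, chr12:55492618-55492897, minus strand: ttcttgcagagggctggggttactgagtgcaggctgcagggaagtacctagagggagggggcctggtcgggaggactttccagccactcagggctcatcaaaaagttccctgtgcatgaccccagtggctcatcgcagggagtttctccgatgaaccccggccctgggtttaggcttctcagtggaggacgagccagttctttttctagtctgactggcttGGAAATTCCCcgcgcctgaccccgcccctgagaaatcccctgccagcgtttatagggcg
Tnfaip3, chr10:19015381-19015660, minus strand: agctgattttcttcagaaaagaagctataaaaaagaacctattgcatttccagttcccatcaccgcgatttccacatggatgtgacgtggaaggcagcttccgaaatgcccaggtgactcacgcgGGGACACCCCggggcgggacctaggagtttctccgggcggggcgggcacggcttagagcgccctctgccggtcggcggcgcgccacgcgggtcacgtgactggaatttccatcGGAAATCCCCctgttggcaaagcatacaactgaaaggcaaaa
Bcl3, chr7:19822726-19823005, minus strand: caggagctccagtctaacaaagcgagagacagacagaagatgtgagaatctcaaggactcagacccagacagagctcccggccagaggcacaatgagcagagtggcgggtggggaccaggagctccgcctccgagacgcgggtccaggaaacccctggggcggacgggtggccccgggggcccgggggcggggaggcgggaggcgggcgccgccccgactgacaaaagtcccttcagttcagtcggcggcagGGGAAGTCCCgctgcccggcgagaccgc
Nfkb2, chr19:46304487-46304766, plus strand: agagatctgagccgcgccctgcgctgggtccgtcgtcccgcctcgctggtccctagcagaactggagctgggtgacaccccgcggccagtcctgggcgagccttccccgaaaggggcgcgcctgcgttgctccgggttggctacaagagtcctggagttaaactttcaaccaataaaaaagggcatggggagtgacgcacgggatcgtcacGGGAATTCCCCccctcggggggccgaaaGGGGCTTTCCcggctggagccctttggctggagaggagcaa

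Positions are counted from the transcription start, negative before it. The match at *Nfkbia* lay from -29 to -20, on the opposite strand. At *Tnfaip3* one match lay from -12 to -3 and another from -125 to -116. The match at *Bcl3* lay from 3 to 12. *Nfkb2* has 3 annotated starts with matches. The window printed held a palindromic word that matches on both strands from -39 to -30, overlapped by a further match from -38 to -29, and a separate match from -11 to -2. The windows of the other starts, not printed, held a match from -236 to -227 of the second start, and 1 further match that both windows share, from 11 to 20 of the second start and from -225 to -216 of the third. The windows of *Birc3*, *Rela* and *Tnfrsf1a* held no match, which says only that these letters are absent from those windows. A match is a description of sequence, and binding was not measured in these samples.

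**Figure D1:**
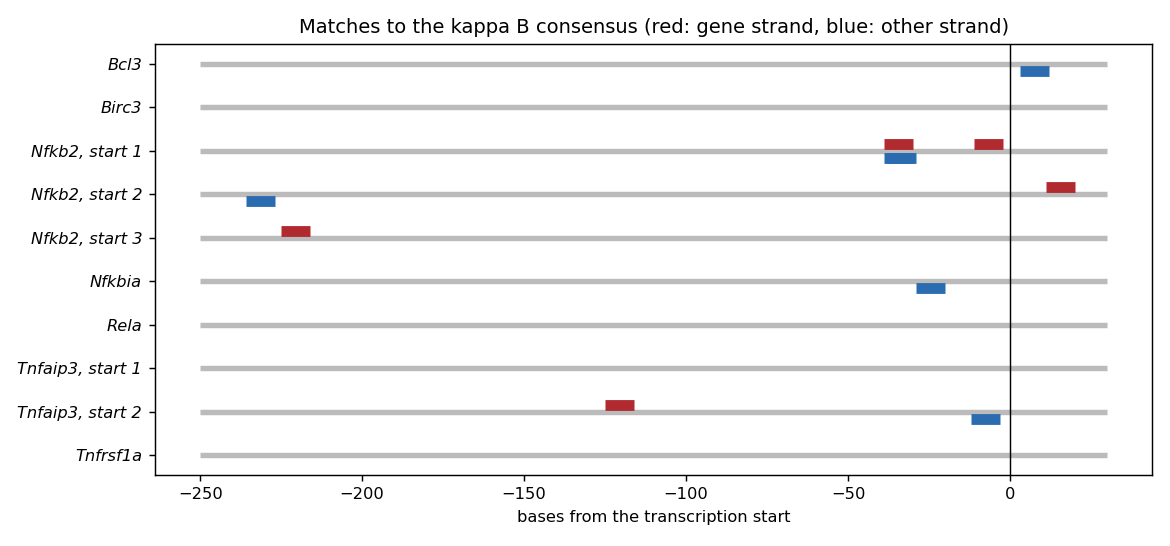
Each grey line is a RefSeq promoter window of a member, drawn by distance in bases from the transcription start (0), and each coloured bar is a match to the 10-base kappa B consensus (red, gene strand; blue, opposite strand). Matches near the start are seen for *Nfkbia*, *Bcl3*, *Tnfaip3* (start 2) and *Nfkb2* (start 1), while *Birc3*, *Rela* and *Tnfrsf1a* hold none.

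RNA had been read as long nanopore reads of full-length cDNA. The authors' counts summed to between 6815920 and 10677224 reads per mouse, so 3 reads, the smallest level taken as different from 0, correspond to 0.281 to 0.440 CPM, the usual unit of a gene's reads relative to the library total. Without molecular identifiers in the reads, such limits cover counting error only. Neuron, astrocyte, oligodendrocyte and microglia markers were detected in all 3 groups. Mice of 1 group were not alike in all markers: vehicle-treated mouse 2 held 1838 CPM of 5 choroid plexus markers, against 4.26 to 14.7 CPM in the other 3 vehicle-treated mice, and vehicle-treated mouse 1 held 4990 CPM of 6 neuron markers, against 3103 to 3331. In bulk tissue, fewer cells of a type and less RNA per cell cannot be told apart. Groups were set against each other in pairs by edgeR's quasi-likelihood test, on genes that reached 1 CPM in 4 or more of the 8 mice. A gene is said to have risen or fallen at a Benjamini-Hochberg adjusted p under 0.05 over all genes tested. Calls under limits like those in the study's methods, an unadjusted p under 0.05 with a fold change of at least 1.5, are given beside them. Those methods describe Benjamini-Hochberg adjustment before naming a limit of P under 0.05. Reading that P as unadjusted is a choice made here.

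In ischemic brains with vehicle, the inhibitor gene *Nfkbia* rose about 3-fold over sham and the nuclear I kappa B gene *Nfkbiz* about 6-fold, while the subunit genes *Nfkb1* and *Rela* stayed within the sham range or close to it. With lactate, *Nfkbia*, *Nfkbiz* and *Tnfrsf1a* rose. *Birc3*, scarce in sham brain, was on average 4.65 times the sham level with vehicle and 3.55 times with lactate, and could be tested with lactate only. No member differed between lactate and vehicle after adjustment. Of the 7 members tested for vehicle against sham, 2 rose and 0 fell, where 1.29% of the 17019 genes tested rose and 0.182% fell. Under the unadjusted limits, 3 members were higher, where 6.5% of all genes tested were. Of the 8 members tested for lactate against sham, 4 rose and 0 fell, where 8.76% of the 17262 genes tested rose and 3.55% fell, and the unadjusted limits gave 4, beside 11.9% of all genes. Of these 4, *Birc3* passed the filter only through the lactate-treated mice, which leaves 3. In 3 of the 7 with vehicle and 4 of the 8 with lactate, the ischemic mice all lay above the sham mice. Of all genes tested, 4.14% and 10.4% did so. The 4 with lactate again include *Birc3*, without which 3 are left. *Bcl3* and *Tnfaip3*, and with vehicle also *Birc3*, did not pass the filter against sham and are described by their counts. Both comparisons use the same sham mice.

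**Figure D2:**
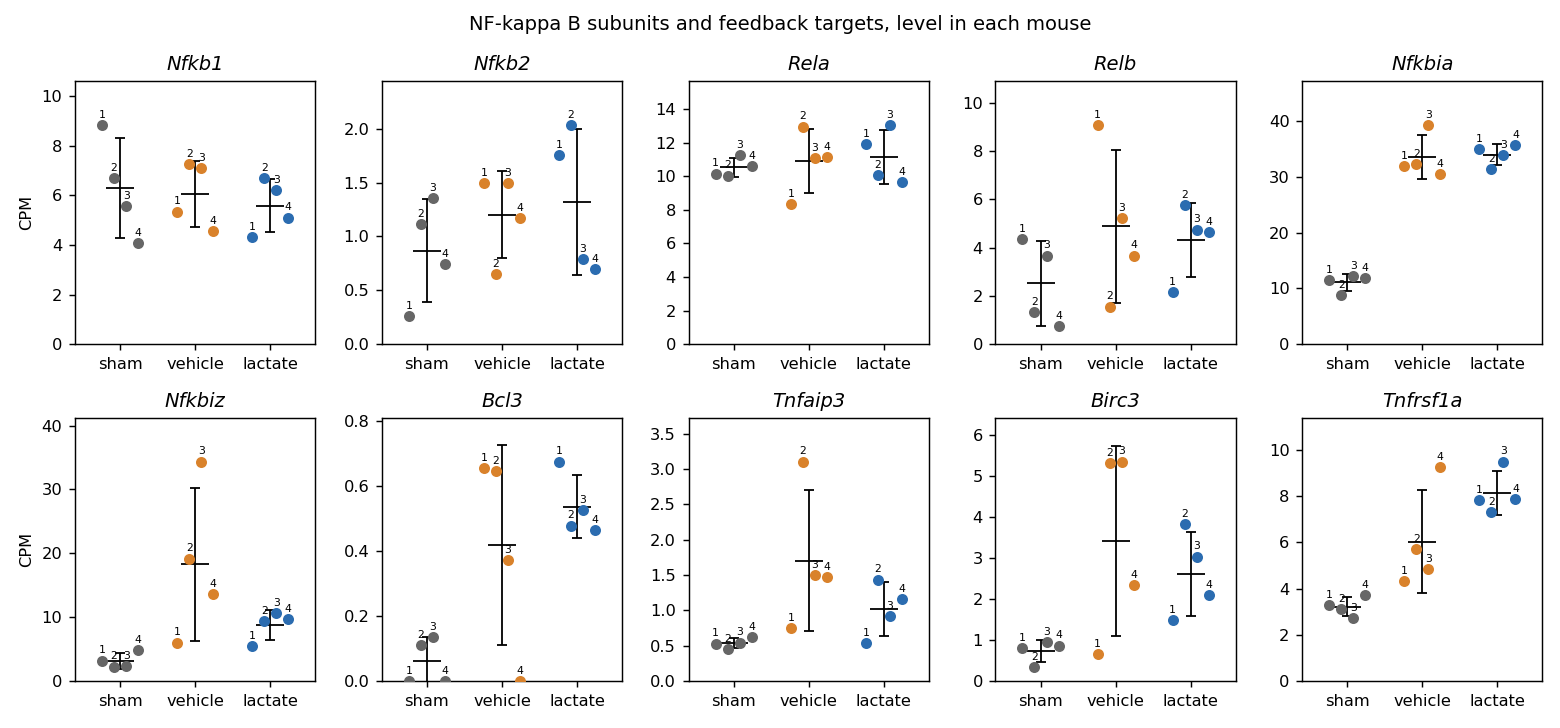
Level of each member in each mouse, in CPM on a linear axis from 0, with sham mice in grey, vehicle-treated ischemic mice in orange and lactate-treated ischemic mice in blue. Small digits are mouse numbers, and black bars are the mean and SD of 4 mice. *Nfkbia* separates both ischemic groups from sham without overlap, whereas *Nfkb1* and *Rela* overlap in all groups.

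*Nfkbia* (ENSMUSG00000021025, GRCm38 chromosome 12 from 55489410 to 55492647, protein-coding, 6 merged exons in GENCODE M21) encodes I kappa B alpha, which holds NF-kappa B dimers in the cytoplasm and is itself remade after each wave of activity. Sham mice 1 to 4 held 11.5, 8.81, 12.2 and 11.8 CPM. Vehicle-treated mice held 31.9, 32.2, 39.3 and 30.5 CPM, and lactate-treated mice 35.0, 31.4, 33.9 and 35.7 CPM. All 8 ischemic mice lay above all 4 sham mice, and the ischemic groups overlapped. The means were 11.1 ± 1.55 (SD, n = 4) in sham, 33.5 ± 3.96 (SD, n = 4) with vehicle, and lactate-treated mice averaged 34 ± 1.90 CPM (SD, n = 4). Over sham the log2 fold change was 1.63 with vehicle (standard error, SE, 0.17, edgeR adjusted p = 1.57e-04) and 1.65 with lactate (SE 0.14, edgeR adjusted p = 8.19e-06). Between lactate and vehicle it was 0.0011, with a 95% interval from -0.31 to 0.31 and an edgeR adjusted p of 1.00. Each ischemic mouse held 208 to 341 reads of the gene.

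*Nfkbiz* (ENSMUSG00000035356, chromosome 16 from 55811375 to 55838899) encodes I kappa B zeta, an inducible nuclear member of the I kappa B family that acts with NF-kappa B dimers at a second wave of target genes. Its level was 3.16, 2.23, 2.31 and 4.81 CPM in sham mice, 5.99, 19.2, 34.4 and 13.6 CPM in vehicle-treated mice, and 5.41, 9.34, 10.7 and 9.62 CPM in lactate-treated mice. Every ischemic mouse lay above every sham mouse, but the vehicle group was wide, from 64 reads in mouse 1 to 276 in mouse 3. *Nfkbiz* rose by 2.57 on the log2 scale with vehicle (SE 0.46, edgeR adjusted p = 0.0145) and by 1.51 with lactate (SE 0.29, edgeR adjusted p = 0.00508). The vehicle call did not hold with every set of sham mice: without sham mouse 1, 2 or 3 the edgeR adjusted p was 0.0591, 0.0708 or 0.0675, and the log2 fold change ranged from 2.08 to 2.87 when each of the 8 mice was left out.

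*Nfkbiz* was also the member with the largest difference between lactate and vehicle. With vehicle the mean was 18.3 ± 12 CPM (SD, n = 4). With lactate it was 8.76 ± 2.31 CPM (SD, n = 4), which gives a log2 fold change of -1.07 (standard error 0.42, 95% interval -1.98 to -0.15). The unadjusted p of 0.026 in edgeR passed the unadjusted limits, beside 2.47% of all 17419 genes that were lower under them, but the edgeR adjusted p was 0.526. All but 1 of the lactate-treated mice lay within the vehicle range. The value moved from -1.36 to -0.57 when each mouse was left out in turn, the latter without vehicle-treated mouse 3.

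*Birc3* (ENSMUSG00000032000, chromosome 9 from 7848699 to 7873186) encodes cIAP2, a ubiquitin ligase that works downstream of tumor necrosis factor receptors and limits cell death. Sham mice held 6, 3, 7 and 7 reads, vehicle-treated mice 7, 41, 43 and 16, and lactate-treated mice 11, 32, 23 and 18. In CPM the vehicle group ran from 0.656 in mouse 1, inside the sham range of 0.334 to 0.951, to 5.35 in mouse 3. The lactate group ran from 1.49 to 3.83 CPM, above all sham mice. With lactate the log2 fold change was 1.86 (SE 0.40, edgeR adjusted p = 0.00997), and with all 12 mice in one fit the edgeR adjusted p was 0.0566. In that comparison 0 sham mice and all 4 lactate-treated mice reached 1 CPM, so *Birc3* was tested only because it was high with lactate, and its call carries no weight of its own. With vehicle, where mouse 1 stayed under 1 CPM, it did not pass the filter. Without a filter its log2 fold change was 2.22 (standard error 0.55, edgeR adjusted p = 0.064). Between lactate and vehicle the log2 fold change was -0.38 (95% interval -1.54 to 0.78, edgeR adjusted p = 0.863). That value moved from -0.75 to -0.08 when each mouse was left out in turn.

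*Tnfaip3* (ENSMUSG00000019850, chromosome 10 from 19000910 to 19015657) encodes A20, a ubiquitin-editing enzyme that shuts off signalling to IKK. It was scarce, at 4, 4, 4 and 5 reads in sham mice, 8, 24, 12 and 10 with vehicle, and 4, 12, 7 and 10 with lactate. All 4 vehicle-treated mice lay above the sham mice, at 0.749 to 3.11 CPM against 0.446 to 0.617 CPM, while lactate-treated mouse 1, at 0.541 CPM, lay inside the sham range. It did not pass the filter in either comparison with sham. Without a filter the log2 fold change over sham was 1.66 (standard error 0.50, edgeR adjusted p = 0.147) with vehicle and 0.90 (standard error 0.47, edgeR adjusted p = 0.249) with lactate. The log2 fold change between lactate and vehicle was -0.73 (95% interval -1.75 to 0.30, edgeR adjusted p = 0.682). It moved from -0.99 to -0.26 when each mouse was left out in turn, the latter without vehicle-treated mouse 2.

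*Bcl3* (ENSMUSG00000053175, chromosome 7 from 19808462 to 19822770) encodes a nuclear I kappa B protein that joins dimers of p50 or p52. It was near the limit of detection, with 0, 1, 1 and 0 reads in sham mice, 7, 5, 3 and 0 with vehicle, and 5, 4, 4 and 4 with lactate. Summed over mice and scaled to the totals, lactate-treated mice held 8.52 times the sham level. The exact 95% interval, for counting error alone, ran from 2.02 to 76.0. Vehicle-treated mice held 7.22 times the sham level, with an interval from 1.68 to 65.1. Both ratios rest on 2 sham reads. The mean levels were only 1.32 (lactate) and 1.03 (vehicle) times the level of 3 reads per library. No lactate-treated mouse overlapped the sham mice, and vehicle-treated mouse 4 had 0 reads. It passed the filter in none of the 3 comparisons. Without a filter the edgeR adjusted p was 0.297 for vehicle and 0.0456 for lactate against sham. A pair of annotated antisense genes inside *Bcl3* are not rows of the table.

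*Tnfrsf1a* (ENSMUSG00000030341, chromosome 6 from 125349362 to 125362484) encodes TNFR1, the broadly expressed receptor for tumor necrosis factor that feeds into IKK. Sham mice held 3.30, 3.12, 2.72 and 3.70 CPM, vehicle-treated mice 4.31, 5.70, 4.86 and 9.24 CPM, and lactate-treated mice 7.84, 7.30, 9.49 and 7.88 CPM. Neither ischemic group overlapped the sham mice. With 39 to 72 reads in each ischemic mouse, *Tnfrsf1a* rose by 1.36 on the log2 scale with lactate (SE 0.20, edgeR adjusted p = 0.00114). With vehicle the value was 0.93 (SE 0.28, edgeR adjusted p = 0.165), past the unadjusted limits only. In the direct comparison it was 0.42 higher with lactate on the log2 scale (95% interval -0.14 to 0.99, edgeR adjusted p = 0.662), and vehicle-treated mouse 4 lay among the lactate-treated mice. The transcript of the ligand itself, *Tnf*, did not reach the filter in any comparison.

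Of the subunit genes, *Rela* and *Nfkb1* had the smallest fold changes over sham. *Rela* (ENSMUSG00000024927, chromosome 19 from 5637483 to 5648130) encodes p65, the main activating subunit. Its level was 10.2, 10.03, 11.3 and 10.6 CPM in sham mice, 8.34, 12.95, 11.1 and 11.2 CPM with vehicle, and 11.9, 10.1, 13.1 and 9.62 CPM with lactate. The groups overlapped, and the log2 fold change over sham was 0.08 with vehicle (95% interval -0.34 to 0.50, edgeR adjusted p = 0.900) and 0.11 with lactate (95% interval -0.24 to 0.47, edgeR adjusted p = 0.711). *Nfkb1* (ENSMUSG00000028163, chromosome 3 from 135584655 to 135691547) encodes p105, the precursor of p50, and its sham mice spanned 4.07 to 8.84 CPM, a range that took in all 8 ischemic mice, at 4.33 to 7.25 CPM. Its log2 fold change was -0.02 with vehicle (95% interval -0.60 to 0.56, edgeR adjusted p = 0.987) and -0.14 with lactate (95% interval -0.68 to 0.40, edgeR adjusted p = 0.778). Increases of the size seen for *Nfkbia* lie outside the intervals of both genes.

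The subunits of the alternative branch of the pathway were lower in reads and more uneven. *Relb* (ENSMUSG00000002983, chromosome 7 from 19606217 to 19629438), which encodes a subunit that pairs with p52, stood at 4.35, 1.34, 3.67 and 0.740 CPM in sham mice, 9.08, 1.55, 5.23 and 3.67 CPM with vehicle, and 2.16, 5.75, 4.75 and 4.64 CPM with lactate. The groups overlapped. Its log2 fold change of 1.03 with vehicle (standard error 0.55, edgeR adjusted p = 0.436) and 0.84 with lactate (standard error 0.45, edgeR adjusted p = 0.251) did not pass the test. The value with vehicle was 0.53 without vehicle-treated mouse 1, the mouse with the most reads. *Nfkb2* (ENSMUSG00000025225, chromosome 19 from 46304320 to 46312385) encodes p100, the precursor of p52. It held 2 to 10 reads in sham, 5 to 16 in vehicle-treated and 6 to 17 in lactate-treated mice. Its log2 fold changes over sham, 0.50 with vehicle and 0.61 with lactate, had edgeR adjusted p values of 0.689 and 0.465. Without sham mouse 1, which held 2 reads, these fold changes were 0.21 and 0.32. *Nfkb2* overlaps, on the opposite strand, the end of *Psd*, which held 29866 reads over all mice, and a noncoding gene that is not a row of the table. Whether reads were counted by strand is not given in the sources used here, so the *Nfkb2* counts are uncertain.

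**Figure D3:**
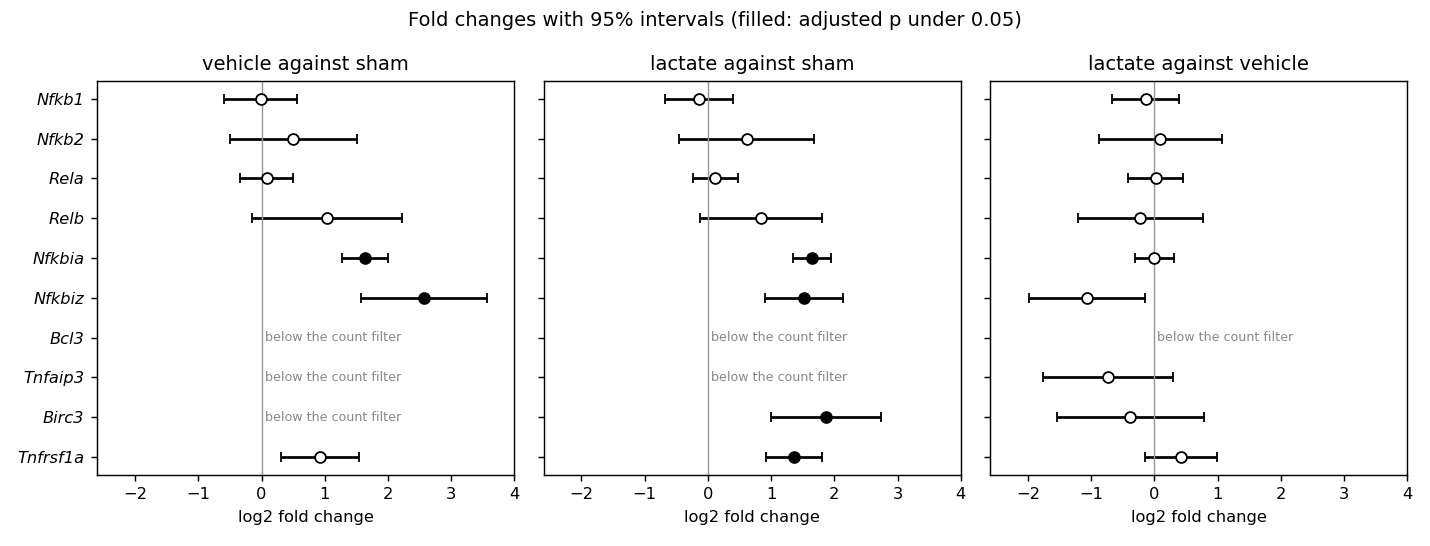
Log2 fold change of each member in each comparison, as the edgeR estimate with its 95% interval on a shared axis (filled circle, adjusted p under 0.05; members without a circle did not pass the filter on low counts). *Nfkbia* and *Nfkbiz* are filled in both comparisons with sham, *Birc3* and *Tnfrsf1a* in that of lactate with sham, and no member is filled for lactate against vehicle.

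For lactate against vehicle, 9 members were tested, and 0 rose and 0 fell in edgeR's quasi-likelihood test. Over all 17419 genes 0 rose and 1 gene, 0.00574%, fell. At an unadjusted p under 0.05 there was 1 member, *Nfkbiz*, beside 8.84% of all genes, and DESeq2's Wald test called 0 members, beside 0.356% of all genes. The median log2 fold change of the 9 members was -0.14, beside -0.03 for all genes tested. Across members the direction was mixed, with 4 positive and 5 negative values. The intervals still allow sizeable differences for the scarce members, such as *Tnfaip3* and *Relb*.

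Among ischemic mice, some pairs of members varied in the same direction and others in opposite directions. For *Nfkbiz*, *Birc3* and *Tnfaip3*, mouse 1 was the lowest of the 4 in the vehicle group, and another mouse that happens to carry number 1 was the lowest in the lactate group. With group means removed, Pearson's r of log2 (scaled CPM + 1) over the 8 ischemic mice was 0.91 for *Nfkbiz* with *Birc3* (Spearman's rho 0.90, given as a description). Without the 2 mice farthest from the median of *Nfkbiz* it was 0.80. Over all 8 ischemic mice r was 0.81 for *Tnfaip3* with *Birc3* (0.54 without the 2 mice farthest from the median of *Tnfaip3*). For *Nfkbiz* with *Tnfaip3* it was 0.60 (0.76 without the 2 mice farthest in *Nfkbiz*). *Nfkb1* stood at 0.77 with *Birc3* (0.90 without the 2 mice farthest from the median of *Nfkb1*), 0.65 with *Tnfaip3* and 0.64 with *Nfkbiz*, and *Rela* at 0.61 with *Birc3* (0.02 without the 2 mice farthest from the median of *Rela*). *Nfkbia* stood at 0.55 with *Nfkbiz*, 0.06 without the 2 mice farthest from the median of *Nfkbia*, and -0.12 with *Tnfaip3*. *Relb* stood at -0.23 with *Nfkbiz*, and at -0.59 without the 2 mice farthest from the median of *Relb*. The lowest values were -0.78 for *Rela* with *Relb* (-0.68 without the 2 mice farthest in *Rela*) and -0.78 for *Bcl3* with *Tnfrsf1a* (0.16 without the 2 farthest in *Bcl3*).

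**Figure D4:**
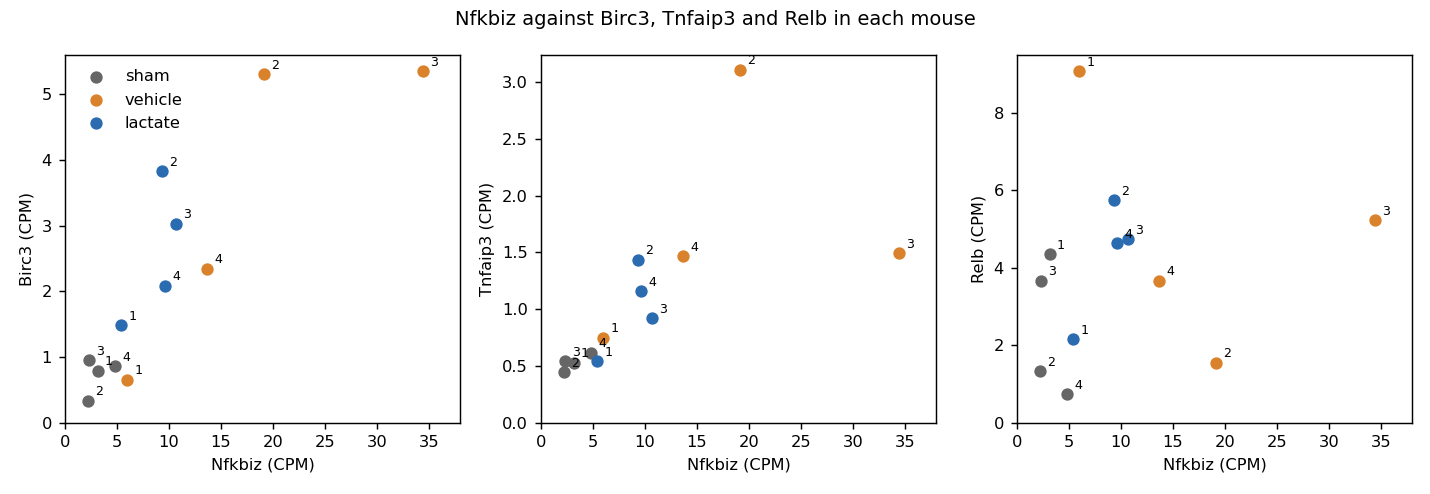
Each point is 1 mouse, with *Nfkbiz* on the horizontal axis and *Birc3*, *Tnfaip3* or *Relb* on the vertical axis, all in CPM (grey, sham; orange, vehicle; blue, lactate; digits, mouse numbers). *Birc3* follows *Nfkbiz*, from 0.656 CPM in vehicle-treated mouse 1 to 5.35 CPM in mouse 3, while *Relb* is highest, at 9.08 CPM, in that same vehicle-treated mouse 1.

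Cell type markers also differed between the groups. The sum of 6 neutrophil markers was 2.67 to 5.41 CPM in sham, 12.03 to 76.6 CPM in vehicle-treated and 19.5 to 42.9 CPM in lactate-treated ones. Its highest values in the vehicle group, 55.6 CPM in mouse 2 and 76.6 CPM in mouse 3, fell on the mice with the most *Nfkbiz* and *Birc3*. In the lactate group, mouse 3 had the highest neutrophil sum, 42.9 CPM, and the most *Nfkbiz*, whereas mouse 1, with the lowest *Nfkbiz* and *Birc3*, had 24.5 CPM, mouse 2, with the most *Birc3*, 23.7 CPM, and mouse 4 had 19.5 CPM. All 6 markers were found in the table, and in ischemic mice most of the mean sum came from *S100a8* and *S100a9*, whereas in sham mice *Cxcr2* held the most. The defining marker *Ly6g* held 0 reads in every sham mouse and at most 2 in any ischemic mouse, and *Mmp8* 0 in sham and up to 13. The sum of 6 monocyte or macrophage markers was 7.74 to 13.2 CPM in sham, 10.4 to 21.6 CPM with vehicle and 11.8 to 22.4 CPM with lactate, and that of 6 microglia markers 219 to 237, 134 to 213 and 211 to 232 CPM. Vehicle-treated mouse 1, with the lowest *Nfkbiz*, *Birc3* and *Tnfaip3* of its group, also had the lowest microglia marker sum in CPM. The sum of 6 astrocyte markers was 592 to 889 CPM in sham, 794 to 871 CPM with vehicle and 960 to 1014 CPM with lactate. That of 6 endothelial markers was 125 to 134, 121 to 163 and 165 to 210 CPM in the same order, and both sums were higher in every lactate-treated mouse than in any other mouse. Single genes made up most of the increase from sham to lactate in both sums. *Gfap* averaged 52.4 CPM in sham and 283 CPM with lactate, while *Aldh1l1*, *Slc1a3* and *Gja1* averaged slightly less with lactate than in sham, and *Slc1a2* (515 and 545 CPM) and *Aqp4* (15.5 and 19.0 CPM) slightly more. *Ly6c1* averaged 74.7 and 133 CPM, while *Cldn5*, *Kdr* and *Tek* averaged less with lactate than in sham, and *Pecam1* (14.01 and 16.5 CPM) and *Flt1* (10.1 and 11.8 CPM) slightly more. The sum of 5 red blood cell markers was 560 to 633 CPM in sham, 333 to 500 CPM with vehicle and 375 to 499 CPM with lactate, lower in every ischemic mouse than in any sham mouse. The sum of 6 neuron markers was 3779 to 3949 CPM in sham and 3376 to 3771 CPM with lactate. It was lower in all lactate-treated mice than in any sham mouse, and with vehicle in all but mouse 1. *Syt1* (1757 and 1528 CPM), *Snap25* (665 and 594 CPM) and *Tubb3* (131 and 115 CPM) averaged less with lactate than in sham. *Rbfox3* (799 and 815 CPM), *Slc17a7* (322 and 338 CPM) and *Gad1* (196 and 210 CPM) averaged more. The part of these cells in the members' levels was not tested.

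The rest of the pathway was followed with a list of 102 genes in 7 roles, of which 59, 61 and 64 were tested for vehicle against sham, lactate against sham and lactate against vehicle. With vehicle 10 rose and 0 fell, where 1.29% of all genes tested rose and 0.182% fell. With lactate 13 rose and 0 fell, where 8.76% rose and 3.55% fell. Of these, 3 with vehicle (*Lcn2*, *Ccl2* and *Ch25h*) and 4 with lactate (the same and *Saa3*) reached 1 CPM in 0 sham mice, so they passed the filter only through the ischemic mice, which leaves 7 and 9. The medians of the list, 0.09 with vehicle and 0.14 with lactate on the log2 scale, lay near those of all genes tested, 0.00 and -0.03. By role, 6 of 15 transcribed targets tested rose with vehicle and 9 of 16 with lactate, those 3 and 4 genes included. Differences between roles were not tested. Of the genes for IKK and the linear ubiquitin ligase, the core of the signalling machine, 0 of 7 rose and 0 fell in either comparison by edgeR, at medians of -0.02 and -0.21, with 1 and 2 at an unadjusted p under 0.05 and 0 by DESeq2. At that unadjusted limit were 13.8% of all genes tested with vehicle and 27.1% with lactate. With lactate all 7 estimates were below 0, the lowest being *Chuk*, which encodes IKK alpha, at -0.62 on the log2 scale (edgeR adjusted p = 0.156). For 0 of 12 negative regulators outside the members was there a call by edgeR or DESeq2, with 1 and 2 at an unadjusted p under 0.05. 

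Receptor genes that rose in both comparisons were *Il1r1*, the signalling receptor for interleukin 1, and *Tnfrsf12a*, the receptor for TWEAK. *Il1r1* averaged 3.69 CPM in sham, 9.21 CPM with vehicle and 10.6 CPM with lactate, log2 fold changes of 1.35 (edgeR adjusted p = 0.0223) and 1.55 (edgeR adjusted p = 0.00149). *Tnfrsf12a* averaged 25.2, 49.8 and 53.1 CPM in the same order, log2 fold changes of 1.01 and 1.10 (edgeR adjusted p = 0.0276 and 5.76e-04). Of the kinases and adaptors, *Map3k8*, which encodes the kinase Tpl2 held by p105, rose from 0.898 to 3.81 CPM with vehicle and 3.08 CPM with lactate, and *Myd88*, the adaptor of interleukin 1 and Toll-like receptors, rose with lactate from 1.21 to 2.91 CPM. *Rel*, the gene of the fifth subunit, c-Rel, rose with vehicle from 0.945 to 2.75 CPM (log2 fold change 1.57, edgeR adjusted p = 0.0388), while with lactate it averaged 1.66 CPM (log2 fold change 0.84, edgeR adjusted p = 0.113). The difference in *Rel* between lactate and vehicle, -0.74 on the log2 scale, had an unadjusted p of 0.0357 and an adjusted one of 0.541 by edgeR.

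The largest increases among the targets were those of genes almost silent in sham brain. *Lcn2*, which encodes the iron-scavenging protein lipocalin 2, held 2 reads over all sham mice and averaged 24.04 CPM with vehicle and 43.9 CPM with lactate. *Ccl2*, which encodes a chemokine that draws monocytes, held 3 reads over all sham mice and averaged 3.51 and 3.18 CPM. The ratio of its summed reads to sham was 36.6 with vehicle (exact 95% interval 12.2 to 180.1 for counting error) and 34.4 with lactate (11.4 to 169.6). *Saa3*, an acute-phase gene, held 0 reads in sham mice and was at least 6.99-fold higher with lactate than the level of 3 reads per library. *Ch25h*, the gene of an oxysterol-making enzyme, rose from 0.314 to 2.81 CPM with vehicle and 3.67 CPM with lactate. *Ptgs2*, the gene of cyclooxygenase 2, rose from 3.34 to 30.3 and 12.6 CPM, with edgeR adjusted p values of 0.0491 and 0.0105. *Gadd45b*, a stress-response gene, rose with vehicle from 7.94 to 23.5 CPM (edgeR adjusted p = 0.0242) and averaged 20.8 CPM with lactate (edgeR adjusted p = 0.0828). *Bcl2a1b* and *Bcl2a1d*, survival genes that are near copies of each other and so uncertain in their counts, rose with lactate by 1.54 and 1.63 on the log2 scale.

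In the direct comparison of lactate with vehicle, 0 of 64 list genes passed edgeR's test, with 7 at an unadjusted p under 0.05, where 8.84% of all genes tested were. DESeq2 called 1, *Lcn2*, at 0.85 on the log2 scale (DESeq2 adjusted p = 4.76e-05, against an edgeR adjusted p of 0.265). The vehicle count of 10 was also sensitive to single mice. It was 0 without vehicle-treated mouse 2, 1 without mouse 3 and 5 without mouse 4, and 3, 4, 3 and 4 without sham mouse 1, 2, 3 and 4, fits in which between 114 and 211 genes passed in all, against 250 with all mice.

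**Figure D5:**
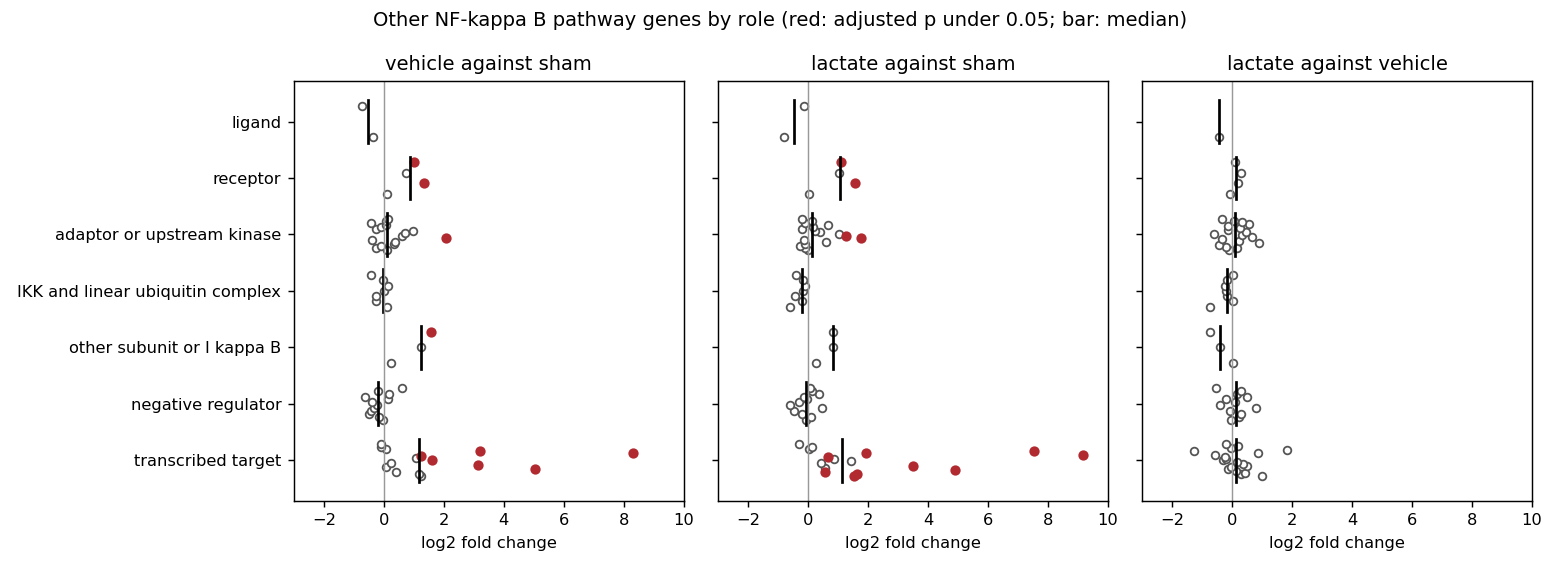
Log2 fold change of the other pathway genes tested, by role, in each comparison (red, adjusted p under 0.05 in edgeR; open circles, other genes; vertical bars, medians). Red points lie among transcribed targets, receptors and upstream kinases in both comparisons with sham, the genes for IKK and linear ubiquitin hold none and reach -0.62 and -0.72 (*Chuk*) with lactate against sham and vehicle, and no point is red for lactate against vehicle.

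Genes whose pattern over the 12 mice was most like that of the members were sought among 13133 genes with an Ensembl identifier and a mean CPM of at least 1. The measure was Pearson's r between a gene and the mean of 9 members, each scaled to the same spread. The highest values were those of *Cd14* (0.983), a coreceptor for bacterial lipopolysaccharide, *Tpm4* (0.980), a tropomyosin, *Zfp36* (0.978), which encodes a protein that destabilises cytokine transcripts, *Mlf1* (0.974) and *Gjb2* (0.970), a connexin gene. *Cd14* averaged 2.21 CPM in sham, 31.6 CPM with vehicle and 24.02 CPM with lactate, and *Zfp36* 3.29, 20.7 and 13.97 CPM. The likeness is a description over mice that differ by group, and says nothing of shared function or control.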

How the data were processed

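Brain RNA of 12 samples in 3 groups of 4 was sequenced as full-length cDNA, with groups taken from the sample labels. The labels number the replicates of a group without saying whether each came from a separate animal. Each is called a mouse here, and should some share an animal, the p-values measure only the spread between samples, which may be technical. The authors deposited raw read counts per gene, made from filtered nanopore reads mapped with minimap2, polished with pinfish and compared with known transcripts by gffcompare. The counter and the annotation are not given in the sources used here, and the submitters' processing notes name GRCm38 and DESeq 1.10.1. The authors also deposited CPM, the count divided by the total of each mouse, and the P values and fold changes of their own edgeR comparisons, left unused here. No per-sample column was left out (0 columns). From the table, 4 lines without a gene were left out and 27 symbols held as dates were restored by identifier. CPM here were recomputed from the counts.

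Groups were compared with edgeR 4.0.16 in R 4.3.3 (quasi-likelihood test, TMM normalization, only the 2 groups compared in each fit, 3 comparisons, Benjamini-Hochberg adjustment over all genes tested). Standard errors were derived from the F statistic. The fits were run on simulated counts with the same dispersion for every gene and group, and with changes set only in genes above a minimum level. Such counts are unlike those of the scarce members and of members with unequal spread between groups. DESeq2 1.42.0 was an alternative. The members and gene lists were chosen with earlier results of these data known. All members are named. Of the other pathway genes, those with an adjusted p under 0.05 in any comparison are named, at most 8 per role, the largest first. The genes most like the members are the 5 with the highest r. Positions are those of GENCODE M21 (GRCm38). Other steps ran in Python 3.11.15 (scipy 1.17.1, pandas 2.3.3, numpy 2.4.6, matplotlib 3.10.9). Alternatives were RLE size factors or totals alone, no filter or one on the mean CPM, all 12 mice in one fit, genes with an Ensembl identifier only, the mouse number as a block, the unadjusted limits, and leaving out each mouse in turn.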

Additional observations from a re-analysis of the deposited data

How the results depend on the processing

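Of 376 values of the members' log2 fold changes under the alternatives, 351 kept their direction and their side of the threshold, 4 lost the call and 21 changed sign. The calls lost were that of *Nfkbiz* with vehicle without sham mouse 1, 2 or 3, and that of *Birc3* with lactate with all 12 mice in one fit. The sign changes were in estimates that had passed no test: *Nfkb1* with vehicle became 0.0098 with Ensembl genes only, and for lactate against vehicle *Rela* became -0.0022 and *Nfkbia* -0.0206 without a filter on low counts. Leaving out single mice, log2 fold changes ranged for vehicle against sham from -0.17 to 0.17 (*Nfkb1*) and from -0.0086 to 0.19 (*Rela*), for lactate against sham from -0.29 to 0.0502 (*Nfkb1*), and for lactate against vehicle from -0.20 to 0.31 (*Nfkb2*), -0.0855 to 0.12 (*Rela*), -0.51 to 0.30 (*Relb*) and -0.0387 to 0.0805 (*Nfkbia*). The number of members called ranged from 1 to 2 with vehicle and from 3 to 4 with lactate, where *Birc3* failed the filter once any 1 of the lactate-treated mice was left out. It was 5 with lactate without a filter on low counts, where 2602 of 27533 genes were called. The member added there was *Bcl3*, at 4 to 5 reads in each lactate-treated mouse. For lactate against vehicle the number of members called was 0 in every fit and 1 under the unadjusted limits. The number of other pathway genes called ranged from 0 to 8 with vehicle and from 8 to 13 with lactate when a mouse was left out, 8 without lactate-treated mouse 3. Under the unadjusted limits it was 20 with lactate (17 higher, 3 lower), where 3023 of all 17262 genes tested passed. For lactate against vehicle it was 5, where 1085 of all 17419 genes passed, and DESeq2 gave 1. Over all genes, DESeq2 called 476 where edgeR called 250 (vehicle and sham mice), and 62 where edgeR called 1 (both ischemic groups). Groups have mouse numbers in common, though sham, vehicle and lactate treatments were given to different animals. Deviations of same-numbered mice correlated between -0.168 and 0.173, and 4, 5 and 0 of 8 mice correlated best with their own number in the 3 comparisons. With the number as a replicate block, 2, 4 and 0 members and 8, 13 and 0 other pathway genes were called. Of all genes tested, those fits called 198 of 17019, 2283 of 17262 and 1 of 17419. The block changed no call of a member. For no member did a mouse lie apart from the others of its group by Dixon's test.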
